A study of Mus musculus with 6 samples.

Results

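The genes described here are 8 components and regulators of the complement system, Masp1, C2, C3, C4b, Cfb, Serping1, Cd55 and Cd59a, among the 19938 genes measured on the arrays of the series. The group was chosen by the VPA (valproic acid) minus control difference of Masp1, which was lower with VPA, and its other members for their place in the pathway with the same results known. So every VPA minus control value of these genes is given as a description. Each gene was read from 1 probe set, annotated with a single symbol, and 7 of the 8 had such a probe set. C3 had no probe set of that kind in the annotation used and has no value here.

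The arrays compared 3 samples titled Pca_vpa with 3 titled Pca_control, all of mouse. Pca is read here as prostate cancer, which the titles do not spell out. VPA is a branched fatty acid and an inhibitor of histone deacetylases of class I, which strip acetyl marks off histone tails. The sources used here do not give the dose, the time or a cell line's name. Other label fields (source, strain, cell type) name differentiated embryonic stem cells of strain 129SV for the control samples and undifferentiated ones of strain Stra8-EGFP/Rosa26 for the VPA samples, so every direction below rests on the titles. The descriptions number the samples as biological replicates, and nothing says whether they came from separate cultures, so the p-values may measure a technical spread.

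Complement is a cascade of proteases and binding proteins in plasma and tissue fluid that marks particles for uptake and can open pores in membranes. It starts along the classical pathway, where C1q binds antibody and the proteases C1r and C1s are activated, along the lectin pathway, where sugar-binding lectins carry the MASP proteases, or along the alternative pathway, which runs through factor B and factor D. All routes meet at the cleavage of C3, and regulators such as C1 inhibitor, CD55 and CD59 protect the host's own cells. The liver makes most of the plasma proteins, and fibroblasts, epithelial cells and macrophages make some of them locally.

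The log2 values of the arrays had medians from 7.15 to 7.18. Markers of the labelled cells were mixed. Of 5 measured prostate markers, the secretory gene Pbsn lay between 3.41 and 3.76, Tmprss2 between 6.46 and 6.66, Psca between 6.69 and 7.82, Hoxb13 between 7.86 and 8.04 and Fkbp5 between 10.15 and 10.41. The epithelial genes Epcam, Krt8 and Krt18 lay at 5.79 to 6.17, 7.25 to 7.99 and 6.36 to 6.82, and Krt19 at 7.76 to 8.85. Of 8 epithelial genes 2, Epcam and Krt19, were higher in VPA at an unadjusted p under 0.05 in limma, beside 9.82% of all genes. No epithelial gene passed after adjustment. The pluripotency genes Pou5f1, Nanog and Zfp42 lay at 4.99 to 5.86, 6.08 to 6.56 and 4.13 to 4.43, whereas Sox2 lay at 10.98 to 11.71. All 8 listed pluripotency genes, beside 58.6% of all genes, had lower means in the samples titled VPA, which other fields call undifferentiated. The median difference of the 8 was -0.19 on the log2 scale, beside -0.035 over all genes. None of the 8 passed limma's test at an adjusted p under 0.05, as 2.34% of all genes did, and 3 were lower at an unadjusted p under 0.05, as 8.3% of all genes were. The arrays carry no detection call, and as a rough reference the means of 1027 olfactory receptor genes ran from 3.13 at their 5th percentile to 6.50 at their 95th. Of the 7 members, 3 had a mean inside that range (C2, Cd55 and Cd59a) and 4 above it. Probe sets differ in how well they hybridise, so this is no measure of presence.

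RefSeq promoter sequences (build GRCm38.p6) were found for 3 of the 8 members, C3, Cd55 and Cd59a. The 250 bases before the transcription start are shown for the measured pair of them, Cd55 and Cd59a, and for the first listed start of C1s1 and of C1s2, nearby protease genes of the classical pathway described further on. Capitals mark every match, on either strand, to 1 of 5 motifs: TTCNNNGAA for STAT factors, GAAANNGAA for interferon regulatory factors, TTGCNNAA for C/EBP factors, GGNNTTTCC, part of the motif, for NF-kappaB and the GC box GGGCGG.
Cd55, GRCm38.p6, chr1:130462745-130462994, minus strand: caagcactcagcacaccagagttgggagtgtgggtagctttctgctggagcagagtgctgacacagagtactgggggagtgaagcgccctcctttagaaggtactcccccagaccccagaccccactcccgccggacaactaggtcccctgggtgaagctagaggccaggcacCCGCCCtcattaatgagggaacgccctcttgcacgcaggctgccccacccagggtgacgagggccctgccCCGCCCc
Cd59a, GRCm38.p6, chr2:104095551-104095800, plus strand: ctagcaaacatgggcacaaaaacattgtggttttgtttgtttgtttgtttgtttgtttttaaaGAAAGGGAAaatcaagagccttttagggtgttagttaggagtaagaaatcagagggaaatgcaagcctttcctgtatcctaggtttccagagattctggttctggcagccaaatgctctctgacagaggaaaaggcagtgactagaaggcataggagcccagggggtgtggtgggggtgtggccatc
C1s1, GRCm38.p6, chr6:124542360-124542609, minus strand: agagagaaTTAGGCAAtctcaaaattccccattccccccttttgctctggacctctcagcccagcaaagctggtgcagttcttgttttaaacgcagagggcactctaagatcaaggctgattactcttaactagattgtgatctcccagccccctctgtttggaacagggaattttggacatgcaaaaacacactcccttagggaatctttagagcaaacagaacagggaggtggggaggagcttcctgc
C1s2, GRCm38.p6, chr6:124636086-124636335, minus strand: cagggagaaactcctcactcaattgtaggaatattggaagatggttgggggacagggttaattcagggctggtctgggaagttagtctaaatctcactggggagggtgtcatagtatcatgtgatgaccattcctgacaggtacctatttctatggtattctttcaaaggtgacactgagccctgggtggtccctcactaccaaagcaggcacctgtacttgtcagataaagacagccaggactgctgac

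The Cd55 window held 2 GC boxes, both read from the other strand. The GC box is in 32.7% of the 32851 windows of this length in the table. The Cd59a window held 1 match to the interferon motif, from position -187 to -179 before the start, a motif found in 7.13% of all windows. The C1s1 window held 1 C/EBP match, at -242 to -235, against 9.56% of windows, whereas the window of the second listed C1s1 start, which lies further downstream, held none. The C3 window, not printed because C3 has no value, held 1 C/EBP match at -45 to -38. The C1s2 window held none of the 5 motifs. The STAT motif, in 7.02% of windows, and the NF-kappaB motif, in 4.93%, were in none of the 4. No matches overlapped. A match is a run of letters, and binding was not measured.

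Of the proteases that start the cascade, Masp1 encodes MASP-1 and, by alternative splicing, MASP-3 and the non-catalytic MAp44 of the lectin pathway. Its single probe set does not separate these forms. The log2 value of Masp1 was 11.70, 11.68 and 11.47 in the control cells (replicates 1 to 3) and 10.49, 10.66 and 10.81 in the VPA cells in the same order, which all later values follow. All 3 VPA arrays lay below all 3 control arrays, and the gap between the groups was wider than the spread within either. The mean was 11.62 ± 0.13 (SD, n = 3) in control and 10.65 ± 0.16 (SD, n = 3) in VPA cells, a log2 difference of -0.97 (SE 0.109), so that VPA cells held 0.512 of the control level (95% interval 0.432 to 0.607). A list of 10 genes that mark hepatocytes, the main source of plasma complement, had a mean log2 value of 5.76 to 5.90 on the control arrays and 5.66 to 5.80 on the VPA arrays, with Alb, the albumin gene, at 4.99 to 5.47.

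**Figure D1:**
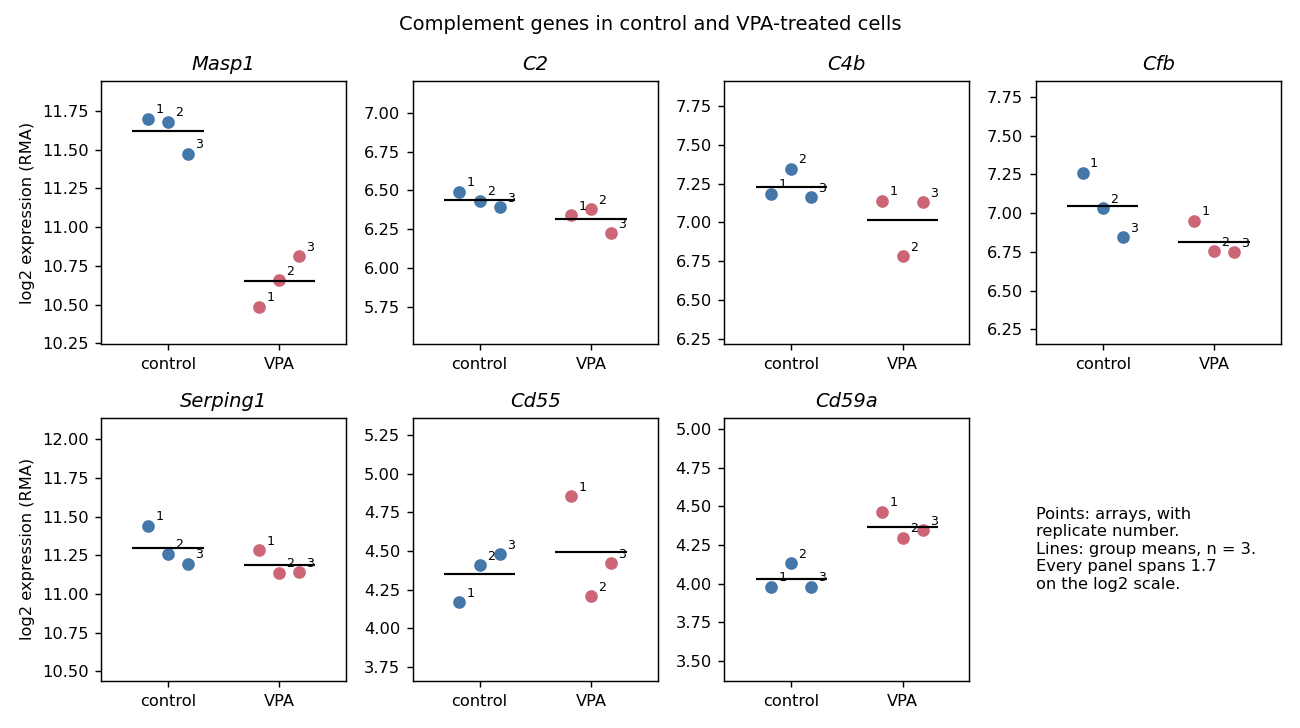
Log2 expression of the 7 measured complement genes (vertical axis, RMA values) on the 3 control and 3 VPA arrays (points, numbered by replicate), with group means as lines and the same height of scale in every panel. Masp1 lies at 11.47 to 11.70 in control and 10.49 to 10.81 in VPA cells, and the group means of the other members differ by at most 0.34.

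C2, C4b and Cfb supply the convertases, the enzymes that cleave C3. C2 is the protease of the classical and lectin convertase, and its log2 value was 6.49, 6.43 and 6.39 in control and 6.34, 6.38 and 6.22 in VPA cells. The VPA arrays lay just below the control arrays, with a difference of -0.12 (SE 0.085, 95% interval -0.32 to 0.066). C4b, whose product binds covalently to surfaces and anchors C2, had 7.18, 7.35 and 7.16 in control and 7.14, 6.78 and 7.13 in VPA cells. VPA replicates 1 and 3 lay just below the lowest control array and VPA replicate 2 stood further off, so that the difference of -0.21 (SE 0.115, interval -0.47 to 0.044) was -0.097 without VPA replicate 2. The gene C4a, a near-identical copy of C4b that can share its probes, had values from 6.05 to 6.76 in control and 6.32 to 6.58 in VPA cells, with a difference of 0.037 (SE 0.162) whose sign turned without control replicate 3 or VPA replicate 1, so the C4b value is uncertain.

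Cfb encodes factor B, the protease of the alternative pathway convertase and a paralogue of C2 that lies next to it in the genome, with 0 protein-coding genes between them in the RefSeq table. Its log2 value was 7.26, 7.03 and 6.85 in control and 6.95, 6.75 and 6.75 in VPA cells. The groups overlapped, since VPA replicate 1 lay above control replicate 3. The difference was -0.23 (SE 0.118, interval -0.49 to 0.036), and it was -0.12 without control replicate 1.

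The regulators among the members act at different steps. Serping1 encodes C1 inhibitor, a serpin that inactivates C1r, C1s and the MASPs. Its log2 value was 11.44, 11.26 and 11.20 in control and 11.28, 11.14 and 11.14 in VPA cells. The groups overlapped, with VPA replicate 1 above control replicates 2 and 3, and the difference was -0.11 (SE 0.0959, interval -0.33 to 0.10).

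Cd55 encodes decay-accelerating factor, which takes convertases apart on the cell surface. Its log2 value was 4.17, 4.41 and 4.48 in control and 4.85, 4.21 and 4.42 in VPA cells. VPA replicate 1 stood above the other 5 arrays, which overlapped, and the difference of 0.14 (SE 0.158, interval -0.21 to 0.50) turned to -0.036 without that array. The adjacent copy Cd55b lay between 3.29 and 3.40 on all 6 arrays.

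Cd59a encodes a membrane-anchored inhibitor of the pore that complement forms, and it was the member that lay furthest above control. Its log2 value was 3.98, 4.13 and 3.98 in control and 4.46, 4.30 and 4.35 in VPA cells. All VPA arrays lay above all control arrays, with means of 4.03 ± 0.087 and 4.37 ± 0.086 (SD, n = 3 each) and a difference of 0.34 (SE 0.0897, interval 0.14 to 0.54), or 1.26-fold. Both means lay under the median of 4.83 of the olfactory receptor genes, so the difference concerns low values. The adjacent copy Cd59b had values of 5.16, 5.61 and 5.08 in control and 5.46, 5.48 and 5.34 in VPA cells, with overlapping groups and a difference of 0.14 (SE 0.134).

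In limma's moderated test over all 19938 genes, 2.34% passed at an adjusted p under 0.05, 0.632% lower and 1.71% higher. Of the 7 members 1 passed, Masp1, the gene whose fall the choice of the group had used. The groups did not overlap for 4 of the 7 members (Masp1, C2 and C4b lower, Cd59a higher), and for 23.1% of all genes (12% lower and 11.1% higher in VPA cells). Because the members were chosen with this contrast known, nothing is read from these counts. The median difference of the 7 members was -0.12, beside -0.035 over all genes, and 5 of the 7, Masp1 included, were lower in VPA cells, as were 58.6% of all genes.

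Within the groups, after the group means were removed, the members varied to different degrees. The residual standard deviation, the spread of the arrays about their group means, was 0.0675 for C2, larger than in 13.1% of all genes, and 0.260 for Cd55, at the 94.5th percentile. It was 0.146 for Masp1, at the 64.5th percentile, and the median over all genes was 0.122. This spread takes control and VPA arrays together. For Cd55 the SD was 0.16 in control and 0.33 in VPA cells, whereas for Cfb it was 0.21 and 0.12. Cfb and Serping1 varied together over the arrays. Relative to the mean of its group, Cfb lay at 0.21, -0.015 and -0.20 in control and at 0.13, -0.064 and -0.070 in VPA cells. Serping1 lay at 0.14, -0.038 and -0.10 in control and at 0.097, -0.051 and -0.046 in VPA cells. Replicate 1 was the highest array of its group for both genes. Pearson's r of this pair was 0.98 over the 6 arrays and 0.98 after the group means were removed, the highest within-group value among the 21 pairs of members. The arrays share 1 normalization, and 6 points with 21 pairs allow this as a description only. Masp1 did not follow them within the groups, with r of 0.12 to Cfb and 0.011 to Serping1.

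**Figure D2:**
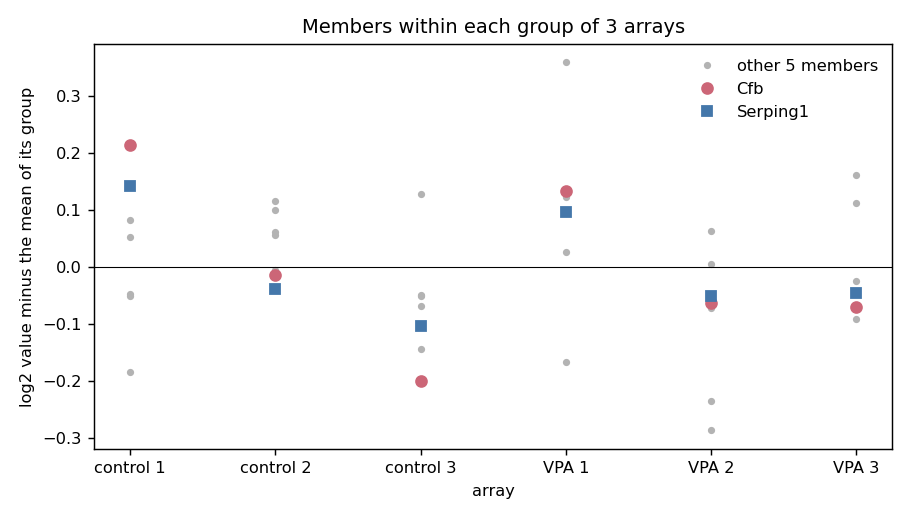
Log2 value of each member minus the mean of its group (vertical axis) on each of the 6 arrays (horizontal axis), with Cfb as circles, Serping1 as squares and the other 5 members as grey dots. Cfb and Serping1 are both highest in replicate 1 of each group, at 0.21 and 0.14 in control and 0.13 and 0.10 in VPA cells.

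The 5 named genes whose values over the 6 arrays were most like those of Masp1 were Chd3, a chromatin remodeller of the NuRD deacetylase complex, Tacc2, Armc5, Evc2 and Mcrip1, with Pearson's r of 0.999, 0.997, 0.997, 0.997 and 0.996. Chd3 had 10.89, 10.86 and 10.67 in control and 10.02, 10.14 and 10.24 in VPA cells, so that control replicate 3 was the lowest control array and VPA replicate 1 the lowest VPA array, as for Masp1. After removal of the group means, r to Masp1 was 0.99 for Chd3 and 0.95 for Armc5. The arrays are common to all these genes and the 5 were the best of 17029 genes compared, so the values describe these arrays.

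Besides the members, 52 further genes of complement were listed by role from general knowledge, with earlier results of these data known. They were not listed for how they moved, and 47 of them had a value. Of these 47 genes 2 rose in the VPA cells, C1s2 and Susd4, 45 did not pass and none fell (limma, adjusted p over all genes), a share of 4.26% beside 2.34% of all genes. Without adjustment, 3 of the 47 had p under 0.05 in the upward and 4 in the downward direction, together 7 genes, beside 18.1% of all genes (9.82% higher and 8.3% lower). The median difference was -0.058, beside -0.035 over all genes.

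The first gene that rose was C1s2, which together with C1s1 encodes mouse C1s, the protease of the C1 complex that cleaves C4 and C2. Its log2 value was 6.33, 6.56 and 6.23 in control and 7.39, 7.14 and 7.05 in VPA cells. The control mean of 6.37 lay inside the olfactory receptor range. All VPA arrays lay above all control arrays. The difference was 0.82 (SE 0.119, n = 3 per group, limma adjusted p = 0.0139), which is 1.77-fold (95% interval 1.47 to 2.13). Single arrays mattered to this call: in limma the adjusted p was 0.0703 when control replicate 1 was left out, 0.0541 for control replicate 3, 0.0571 for VPA replicate 1 and 0.0558 for VPA replicate 2. Without these arrays, in the same order, 20, 71, 66 and 72 of all genes passed, beside 467 with every array. The difference of C1s2 stayed between 0.72 and 0.91 with any single array left out.

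C1s1 had 7.41, 7.92 and 7.33 in control and 8.24, 8.08 and 7.81 in VPA cells, and control replicate 2 lay above VPA replicate 3. The difference of 0.49 (SE 0.163, limma adjusted p = 0.156) did not pass. Without control replicate 2 it was 0.67 with an adjusted p of 0.0381. C1s1 and C1s2 are similar copies that can share probes, so how the signal divides between them is uncertain. C1ra, the protease gene that neighbours C1s1 and whose product activates C1s, had 7.46, 7.60 and 7.29 in control and 7.46, 7.53 and 7.46 in VPA cells, with overlapping groups and a difference of 0.033 (SE 0.0988, interval -0.19 to 0.26), whose sign turned without control replicate 3.

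The second gene that rose was Susd4, a membrane protein with the complement control domains typical of regulators. Its log2 value was 8.38, 8.69 and 8.11 in control and 9.20, 9.04 and 8.96 in VPA cells, with no overlap. The difference was 0.67 (SE 0.140, n = 3 per group, limma adjusted p = 0.0432), which is 1.59-fold (95% interval 1.28 to 1.98). It lost its call without the same arrays as C1s2, with a limma adjusted p of 0.151 and 0.108 for control replicates 1 and 3 and of 0.160 and 0.135 for VPA replicates 1 and 2. The difference of Susd4 stayed between 0.53 and 0.82 with any single array left out. For C1s2, C1s1, C1ra and Susd4 control replicate 2 was the highest control array.

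**Figure D3:**
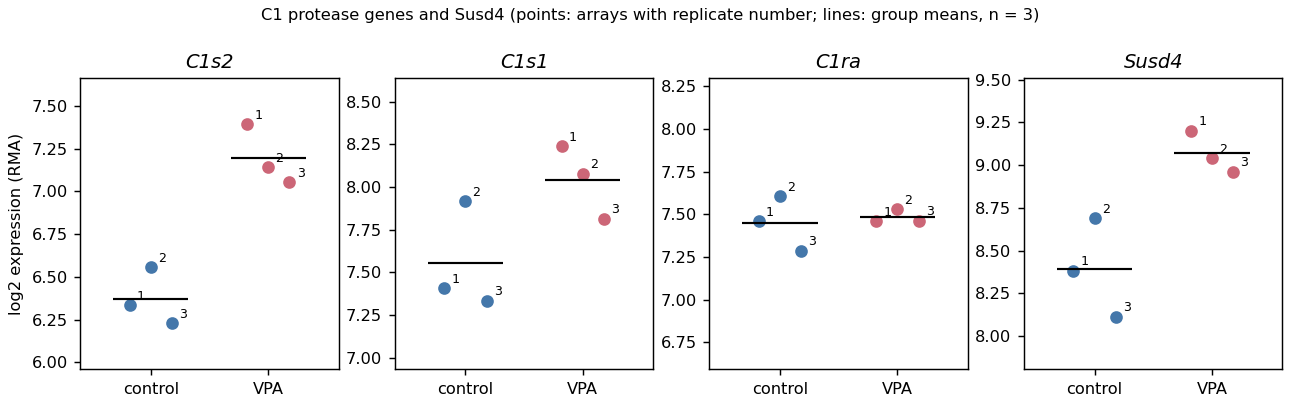
Log2 expression (vertical axis, RMA values) of C1s2, C1s1, C1ra and Susd4 on the 3 control and 3 VPA arrays (points, numbered by replicate), with group means as lines and panels of the same height of scale. C1s2 and Susd4 do not overlap between the groups, C1s1 overlaps through control replicate 2 at 7.92, and the group means of C1ra differ by 0.033.

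In the classical pathway C1s2 was the 1 of 6 measured genes that passed, beside 2.34% of all genes. The C1q chain genes C1qa, C1qb and C1qc differed by -0.12, -0.11 and -0.13. In the lectin pathway none of 8 passed in limma and 2 were lower at an unadjusted p under 0.05, a threshold that 8.3% of all genes passed in that direction. Masp2, the protease that cleaves C4 and C2 in that pathway, had 6.39, 6.37 and 6.37 in control and 5.97, 5.99 and 6.22 in VPA cells. Its groups did not overlap, as for 23.1% of all genes, and its difference was -0.31 (SE 0.0927, limma adjusted p = 0.119). The Masp2 means of 6.37 in control and 6.06 in VPA cells lay inside the olfactory receptor range, below those of Masp1. The ficolin gene Fcna differed by -0.24 (limma adjusted p = 0.190), and Colec11, a collectin, by -0.046, with a sign that turned without control replicate 1 or VPA replicate 2.

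Among the 3 measured genes of the alternative pathway and the central proteins none passed in limma. None had an unadjusted p under 0.05, as 18.1% of all genes did. Cfp, which encodes properdin, the protein that stabilises the alternative convertase, differed by 0.040, a sign that turned with a second quantile normalization, and Hc, which encodes C5, by -0.088. Of 6 terminal components, which build the pore, none passed in limma. At an unadjusted p under 0.05, 1 was lower, beside 8.3% of all genes. That gene was C8a, at -0.24 (SE 0.0927, limma adjusted p = 0.220), while C8g differed by 0.082.

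Of 6 soluble regulators none passed in limma and 1 was lower at an unadjusted p under 0.05, beside 8.3% of all genes. That gene was Cpn1, a subunit of the carboxypeptidase that trims the small complement fragments, at -0.24 (limma adjusted p = 0.174). Clu, which encodes clusterin, differed by 0.10, and Vtn, vitronectin, by -0.028, a sign that turned with a second quantile normalization. Of 8 membrane regulators 1, Susd4, passed, beside 2.34% of all genes. Cr1l, which encodes Crry, the widely expressed rodent regulator of C3 and C4 cleavage, had 8.87, 9.13 and 9.01 in control and 8.96, 9.23 and 8.94 in VPA cells, so that the groups overlapped. Its difference of 0.038 turned sign with a second quantile normalization. Of 10 receptor genes none passed in limma. None had an unadjusted p under 0.05, as 18.1% of all genes did. C5ar1, the C5a receptor, differed by 0.0046 (SE 0.194), with a sign that turned in 5 of 14 other settings. C1qbp, a mitochondrial protein that also binds C1q, differed by -0.20 (SE 0.0944, limma adjusted p = 0.312).

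**Figure D4:**
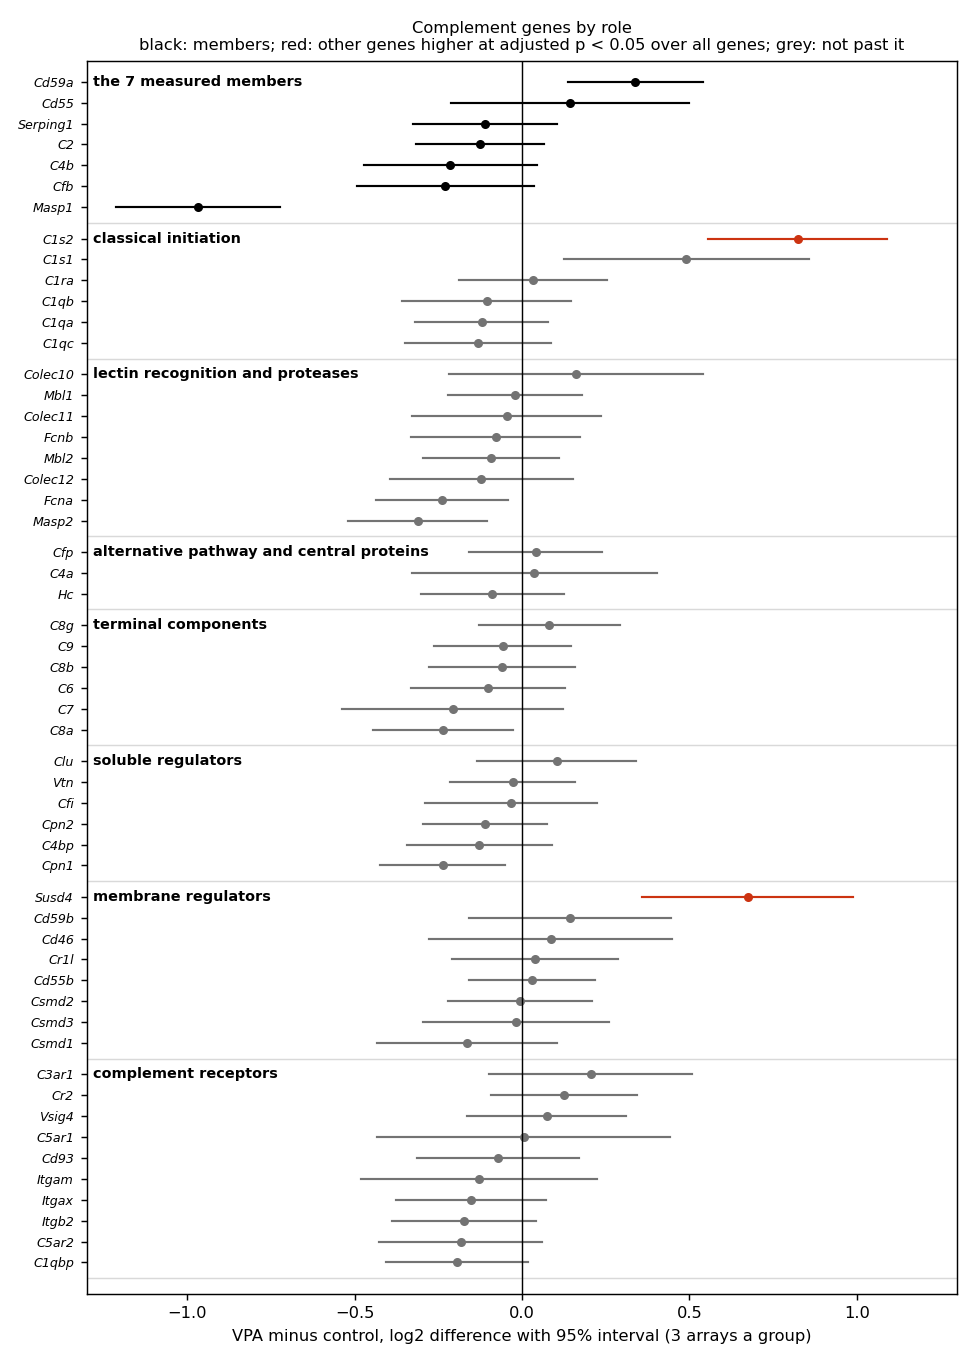
VPA minus control log2 difference (horizontal axis, points) with its 95% interval (lines) for the 7 measured members and the 47 other complement genes by role, from 3 arrays a group. The 2 red genes, C1s2 at 0.82 and Susd4 at 0.67, passed limma's test over all genes, and Masp1 among the members lies at -0.97.

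Macrophages make many complement proteins, and of 10 macrophage marker genes none passed in limma, with 1 lower at an unadjusted p under 0.05, beside 8.3% of all genes. The list had a mean log2 value of 6.35 to 6.46 on the control arrays and 6.24 to 6.30 on the VPA arrays. Adgre1 and Ptprc lay at 5.34 to 5.66 and 5.31 to 5.80, but Cd68 at 7.94 to 8.82 and Cd14 at 6.52 to 7.80. The 1 lower macrophage gene was Cd14, at -0.55, and 9 of the 10 differences were negative, beside 58.6% over all genes. Of 10 hepatocyte and 8 fibroblast markers none passed in limma either, with 1 and 2 lower at an unadjusted p under 0.05. The fibroblast list had a mean log2 value of 9.04 to 9.26 on the control and 9.01 to 9.28 on the VPA arrays. Dcn, the decorin gene, lay at 13.98 to 14.13, Pdgfra at 10.53 to 11.14 and Lum at 4.04 to 4.24. The 2 fibroblast genes lower at that p were Col3a1, at -0.46, and Pdgfrb, at -0.36, and 4 of the 8 had a positive difference. The part of other cell types in the complement values was not tested.

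Complement genes are induced by interferons, interleukin-6, interleukin-1 and tumour necrosis factor. Of 23 receptor, kinase, transcription factor and inhibitor genes listed for these pathways, 20 had a value. Nfkbia, Socs1 and Socs3 are the inhibitor genes among them. In limma's test over all genes 1 of the 20 fell, none rose and 19 did not pass, beside 0.632% of all genes called lower and 1.71% called higher. At an unadjusted p under 0.05, 6 of the 20 were lower and 0 higher, beside 8.3% and 9.82% of all genes. The inhibitor gene Socs3 was among the 6. The gene that fell was Cebpa, which encodes the transcription factor C/EBP-alpha. It had 8.48, 8.59 and 8.46 in control and 8.20, 8.04 and 8.01 in VPA cells. No arrays overlapped, and the log2 difference of Cebpa was -0.43 (SE 0.0899, n = 3 per group, limma adjusted p = 0.0440). The other C/EBP genes of the list, Cebpb and Cebpd, differed by -0.064 and -0.054, with overlapping groups. With any single array left out, Cebpa lost its call, with limma adjusted p from 0.0733 without VPA replicate 3 to 0.161 without VPA replicate 2. Its difference stayed between -0.49 and -0.39 in these fits. The median difference of the 20 genes was -0.10, and 16 of them were lower, beside 58.6% of all genes.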

How the data were processed

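The labels' protocols describe biotin labelling of total RNA for Affymetrix Mouse Gene 1.0 ST arrays, 1 for each of 3 control and 3 VPA samples, grouped by title. The values are log2 values that the authors deposited, made by RMA with Expression Console of Affymetrix according to the submitters' processing notes, and no step was added. RMA normalizes the arrays together before probes are summarised to probe sets, so the deposited values still differ slightly in distribution between arrays. It gives no detection call, and the number of arrays limits the precision.

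Of 35556 probe sets, 21789 had 1 gene symbol, 1621 several and 12146 none. Each gene was read from its probe set of highest mean. VPA was compared with control in limma 3.58.1 (lmFit, eBayes; R 4.3.3), two-sided, with Benjamini-Hochberg adjustment over all 19938 genes and a threshold of 0.05; the script was tested on simulated data. The members and lists were chosen with earlier results of these data known. Named were all members, listed genes past the threshold, in each role the 2 genes of highest mean and the 1 of smallest p, the copies C4a, Cd55b and Cd59b, and the 5 genes of highest correlation to Masp1, leaving out predicted genes and receptor families. C1qa, C1qb, C1qc, Adgre1, Ptprc, Cd68, Cd14, Dcn, Pdgfra, Lum, Col3a1, Pdgfrb, Krt19 and Socs3 were named after their values were seen. So were Nfkbia, Socs1, Cebpb, Cebpd, the prostate markers, the olfactory receptors and, in the closing section, Irf1 and Irf9. Alternatives were a filter on low values (3 arrays at 6 or more on the log2 scale), quantile normalization once more, median centring, a prior with trend and robustness, a block for replicate number, array weights, averaging or testing all probe sets, and leave-one-out.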

Additional observations from a re-analysis of the deposited data

How the results depend on the processing

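Of 96 values of the 7 members under 14 settings, 92 kept their direction and side of the threshold. Masp1 stayed between -1.05 and -0.88 and passed in 12 of 14 settings, with limma adjusted p of 0.0509 when control replicate 1 was left out and 0.112 with every probe set tested. The settings draw on the same arrays by which the group was chosen, so these counts for the members are a description only. Cd59a passed in 1 setting, quantile normalization once more (0.41, limma adjusted p = 0.0439), which gave 2 members past the threshold. With every probe set tested 0 members passed (2 at an unadjusted p under 0.05), and leaving out single arrays gave 0 to 1. Of the wider complement genes 0 passed with every probe set tested (7 at an unadjusted p under 0.05) and 0 to 3 with single arrays left out. Of the cytokine pathway genes 0 passed with every probe set tested (5 at an unadjusted p under 0.05), 0 to 1 with single arrays left out and 3 with the replicate block, Cebpa, Irf9 and Irf1. Over all genes 1199 passed with the replicate block, 714 with array weights, 2 with every probe set tested and 20 to 815 with single arrays left out. Same-numbered arrays correlated at 0.084, 0.45 and 0.28 in their deviations from the group means, and 5 of 6 arrays correlated best with their own number, so the data hint at a shared structure that the labels do not state and that 1 pair does not show. The block brought C1s1 past the threshold (limma adjusted p = 0.0497) and moved no other complement call.

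Genes that turned sign were not past the threshold in any setting. With single arrays left out the range was -0.036 to 0.29 for Cd55, -0.049 to 0.11 for C1ra, -0.15 to 0.21 for C4a, -0.18 to 0.21 for C5ar1, -0.020 to 0.079 for Cfp, -0.13 to 0.088 for Colec11 and -0.057 to 0.10 for Cr1l. Quantile normalization once more gave -0.0040 for Cfp, -0.0074 for Cr1l and 0.042 for Vtn, and centring on medians gave -0.015 for C5ar1. The causes were not tested. Low values limit Cd55, Cd59a and C2 among the members. Of the wider complement genes, Masp2, Cpn1, Hc, Vtn, C1qa, C1qb and C1qc, among others, also had means inside the olfactory receptor range. The control mean of C1s2 lay there too, at 6.37.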
